A study of Mus musculus with 8 samples.

Results

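The mitochondrial ribosomal protein genes were the rows of a gene count table of mouse muscle whose symbol was Mrpl or Mrps followed by a number and at most 1 letter. The rule used names only and found 78 genes among 32390 rows, 49 named for the large subunit and 29 for the small subunit. The libraries were poly(A)-selected RNA-seq of gastrocnemius muscle from 21-month-old male C57BL/6 mice on standard chow. The 4 control mice carried floxed Nox4 alleles without Cre (Nox4 fl/fl), and the 4 NOX4-deficient mice carried the same alleles with Cre under the muscle creatine kinase promoter (MckCre:Nox4 fl/fl). This promoter drives Cre chiefly in skeletal muscle fibers and more weakly in the heart, so the other cells of the muscle keep Nox4, which encodes an NADPH oxidase that makes hydrogen peroxide. The labels place all 8 samples in batch 1.

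Mitochondrial ribosomes translate the few mRNAs of the mitochondrial genome, which encode core subunits of the oxidative phosphorylation complexes. Their ribosomal RNAs come from the mitochondrial genome, whereas every one of their proteins is encoded in the nucleus, translated in the cytosol and imported. The large subunit forms peptide bonds and the small subunit decodes the mRNA. Some of the proteins have a bacterial counterpart and others are found in mitochondrial ribosomes alone. Muscle fibers depend on this supply for aerobic ATP production. By this division 46 of the genes have a bacterial counterpart, 31 do not, and Mrps36 encodes a subunit of the oxoglutarate dehydrogenase complex in spite of its name. Mrps30 and Mrps18a are named for the small subunit but their proteins sit in the large one, so counted by place there were 51 large-subunit and 26 small-subunit genes.

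Total counts were 16350548 to 19804661 per library. The transcript of the floxed gene itself was low and did not separate the genotypes. Nox4 had 85, 48, 35 and 70 counts in the controls and 29, 43, 42 and 37 in the NOX4-deficient libraries, that is 3.27 ± 1.42 and 2.07 ± 0.22 CPM (counts scaled to the library's total after TMM normalization; mean ± SD, n = 4). The log2 fold change was -0.65 (95% interval -1.28 to -0.01), with an adjusted p of 0.207 in edgeR's quasi-likelihood test. With 1 library left out the log2 fold change ran from -0.82 to -0.36. By exact permutation of the CPM values, two-sided, p was 0.2, and 4 against 4 samples cannot go below 0.0286. Reads on whole-gene rows include any left outside the deleted part, so these counts are a weak check of the labels. The first principal component of all tested genes (34.9% of the variance) separated the genotypes, with control 4 at its far end, and the second (19%) separated NOX4-deficient 1 and 3 from NOX4-deficient 2 and 4. The 10 skeletal muscle fiber markers summed to 140634 to 173995 CPM in controls and 152630 to 180724 CPM in NOX4-deficient libraries, and none was called.

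Mitochondrial ribosomal protein mRNA was present at about the same level in both genotypes. Of the 77 genes tested 2 passed the test: Mrps14 rose and Mrpl41 fell in the NOX4-deficient muscles, 1 gene in each direction, where 2.68% of all rows were called higher and 3.48% lower. Both calls were lost when certain single libraries were left out. The median log2 fold change was 0.008 over the 77 genes, 0.005 over the 48 large-subunit genes tested and 0.016 over the 29 small-subunit genes, against 0.014 over all 12725 rows tested. What varied was the level of nearly all of these genes together from library to library within a genotype. Calls required both an edgeR adjusted p under 0.05 and a log2 fold change beyond 0.5 in either direction, and all log2 fold changes are NOX4-deficient over control.

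Sequence is shown first for 4 promoters, because nuclear genes for mitochondrial proteins are known for binding sites of NRF1, of ETS factors such as GABPA, and of YY1 near their start sites. RefSeq promoter windows (GRCm38.p6, 250 bases before to 50 after an annotated start) were found for 69 of the 78 genes. Mrps14 and Mrpl41 are shown because they passed the test, Mrps21 because it had the next smallest p among genes with a higher level, and Mrpl32 because its window held 2 kinds of motif and it shares its start region head to head with the proteasome gene Psma2. Each line gives the 250 bases before the start, 5′ to 3′ in the direction of the gene, with motif matches in capitals. The windows are Mrps14 at chr1:160194965-160195214 (plus strand), Mrpl41 at chr2:24975099-24975348 (minus), Mrps21 at chr3:95871515-95871764 (minus) and Mrpl32 at chr13:14613038-14613287 (minus).
Mrps14: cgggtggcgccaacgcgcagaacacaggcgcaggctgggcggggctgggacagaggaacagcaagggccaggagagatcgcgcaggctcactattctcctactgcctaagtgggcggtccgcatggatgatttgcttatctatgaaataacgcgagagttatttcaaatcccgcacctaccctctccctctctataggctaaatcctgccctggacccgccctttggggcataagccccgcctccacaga
Mrpl41: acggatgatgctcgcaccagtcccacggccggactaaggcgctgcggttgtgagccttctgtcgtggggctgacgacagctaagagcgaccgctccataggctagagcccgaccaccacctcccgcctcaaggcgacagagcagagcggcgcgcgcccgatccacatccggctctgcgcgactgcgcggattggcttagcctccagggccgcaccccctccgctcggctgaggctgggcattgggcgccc
Mrps21: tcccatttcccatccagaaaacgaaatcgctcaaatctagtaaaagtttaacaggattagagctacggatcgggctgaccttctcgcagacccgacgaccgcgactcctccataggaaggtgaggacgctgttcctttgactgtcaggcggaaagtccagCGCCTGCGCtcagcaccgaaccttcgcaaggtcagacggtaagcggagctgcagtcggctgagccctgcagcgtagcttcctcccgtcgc
Mrpl32: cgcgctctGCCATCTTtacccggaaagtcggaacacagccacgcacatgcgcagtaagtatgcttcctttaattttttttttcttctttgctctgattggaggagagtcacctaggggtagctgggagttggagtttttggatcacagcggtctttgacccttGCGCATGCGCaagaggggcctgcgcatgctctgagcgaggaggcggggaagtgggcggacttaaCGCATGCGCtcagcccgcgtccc
The motifs searched on both strands were GCGCANGCG for NRF1, CCGGAAG for ETS factors and AANATGGC for YY1. Mrps14 and Mrpl41 held none of the 3 anywhere in their windows. Mrps21 held a minus-strand NRF1 match 90 to 82 bases before its start, shown in capitals, and an ETS match after the start that is not printed. Mrpl32 held NRF1 matches 87 to 78 bases and 23 to 15 bases before the start and a minus-strand YY1 match 242 to 235 bases before it.

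Most of the genes with a window held a motif. More than 1 kind, as in the last pair, was found in 15 genes, and NRF1 in 16. At least 1 of the motifs lay in the windows of 48 of the 69 genes. Counted over windows, since some genes have several starts, this was 64% of 75 windows against 18.6% of all 32851 windows of the same length. The ETS motif was in 34.7% of the windows (8.86% of all windows), YY1 in 28% (6.05%) and NRF1 in 21.3% (6.25%), and matches of different motifs never overlapped. These windows were also richer in G and C, with a median of 58.7% against 52.7%, and the part of base composition in the shares was not tested. Within the family, 32 of 43 large-subunit genes (74.4%) and 16 of 26 small-subunit genes (61.5%) held a motif. Of the ETS matches, 90.3% lay from 100 bases before the start to 50 after it, as did 76.2% of the NRF1 and 75% of the YY1 matches. A match is a run of letters, and binding was not measured. Median log2 fold changes of genes with and without a motif, whose difference was not tested, were 0.04 and 0.01 for NRF1, 0.09 and -0.04 for ETS and -0.02 and 0.05 for YY1.

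Among the tested genes mean levels ran from 7.32 CPM for Mrps6 to 155 CPM for Mrpl42, with a median of 28 CPM. Counts behind a gene in a library were 102 to 3589, with a median of 500. Per kilobase of the principal transcript, the median was 21.9 CPM per kb for the large-subunit genes and 14.1 for the small-subunit genes, against 3.95 for all tested rows with a known length. At the top of the genes named for the large subunit stood Mrpl42 (232 CPM per kb), Mrpl30 (88) and Mrpl33 (66.4). Among those named for the small subunit Mrps21 (135), Mrps18a (50.1) and Mrps15 (49.7) were highest, although the Mrps18a protein sits in the large subunit. At the bottom were Mrpl19 (2.35) and Mrpl47 (4.42) in the large subunit and Mrps25 (3.33), Mrps35 (4.39) and Mrps26 (4.83) in the small subunit. Several of these low values rest on long annotated transcripts, such as 6073 bases for Mrps25, 5000 for Mrpl19 and 4278 for Mrps26, so they are too low wherever muscle uses a shorter form. By coding length, an alternative chosen after seeing the data, the medians were 50.6 CPM per kb for the large-subunit genes and 39.4 for the small-subunit genes, and the ratio of the 2 medians was 1.28. Mrpl42 and Mrps21 headed the coding-length order too, with 363 and 252 CPM per kb. Mrpl53 had 0 counts in each of the 8 libraries and was not tested. Of its exon length 88% overlaps other genes, so reads from it may have been left uncounted, and nothing is drawn from its zeros.

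Summed over the genes, the protein mRNAs of the mitochondrial ribosome made up 0.222% to 0.304% of a library. The large-subunit genes summed to 1871, 1824, 1808 and 1589 CPM in controls 1 to 4 and to 2067, 1449, 1893 and 1784 CPM in NOX4-deficient libraries 1 to 4. The small-subunit genes summed to 847, 799, 826 and 747 CPM in the controls and to 972, 681, 894 and 790 CPM in the NOX4-deficient libraries. The highest and the lowest library of each subunit were both NOX4-deficient, and the controls lay between them. The means were 1773 ± 125 and 1798 ± 260 CPM for the large subunit and 805 ± 43.4 and 834 ± 127 CPM for the small subunit (SD, n = 4 each), so the genotypes differed by less than the spread within either. In bulk muscle, fewer cells of a type and less RNA per cell cannot be told apart.

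The balance of the 2 subunits varied less than their sums. The ratio of large-subunit to small-subunit CPM was 2.207, 2.282, 2.188 and 2.127 in the controls and 2.125, 2.128, 2.117 and 2.257 in the NOX4-deficient libraries. The means were 2.201 ± 0.064 and 2.157 ± 0.067, and the groups overlapped. With each gene counted by its place in the ribosome the means were 2.623 ± 0.076 and 2.512 ± 0.070, with ranges of 2.555 to 2.732 and 2.455 to 2.613 that overlapped as well.

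**Figure D1:**
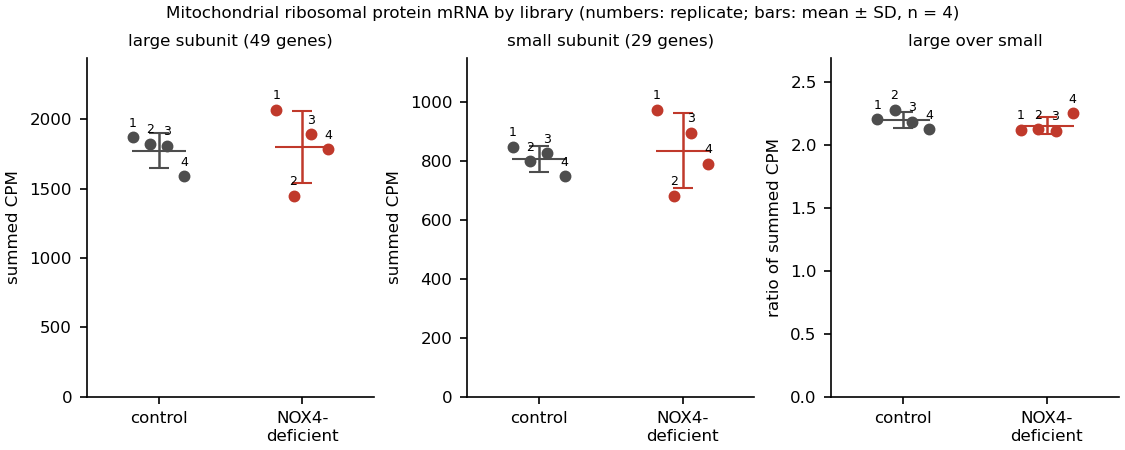
Summed CPM of the 49 large-subunit genes (left) and the 29 small-subunit genes (middle), and their ratio (right), for each control and NOX4-deficient library. Points are libraries with replicate numbers, and bars are means ± SD (n = 4). NOX4-deficient 1 is the highest and NOX4-deficient 2 the lowest library in both sums, while the ratio stays between 2.117 and 2.282.

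Most estimates were tight around no change. Of the 77 genes, 42 had a positive and 35 a negative log2 fold change, with quartiles of -0.11 and 0.12. The 95% interval lay wholly between -0.5 and 0.5 for 62 genes (80.5%), against 38.1% of all rows tested. Intervals are narrower for better-counted genes, and the part of counting depth in this share was not tested. Large-subunit genes had 41 of 48 such intervals and small-subunit genes 21 of 29. Without a minimum fold the calls among the 77 genes were the same, against 3.13% of all rows higher and 4.62% lower. At an unadjusted p under 0.05 there were 2 genes higher and 5 lower, 7 of 77 in all, where all rows gave 23.2%.

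**Figure D2:**
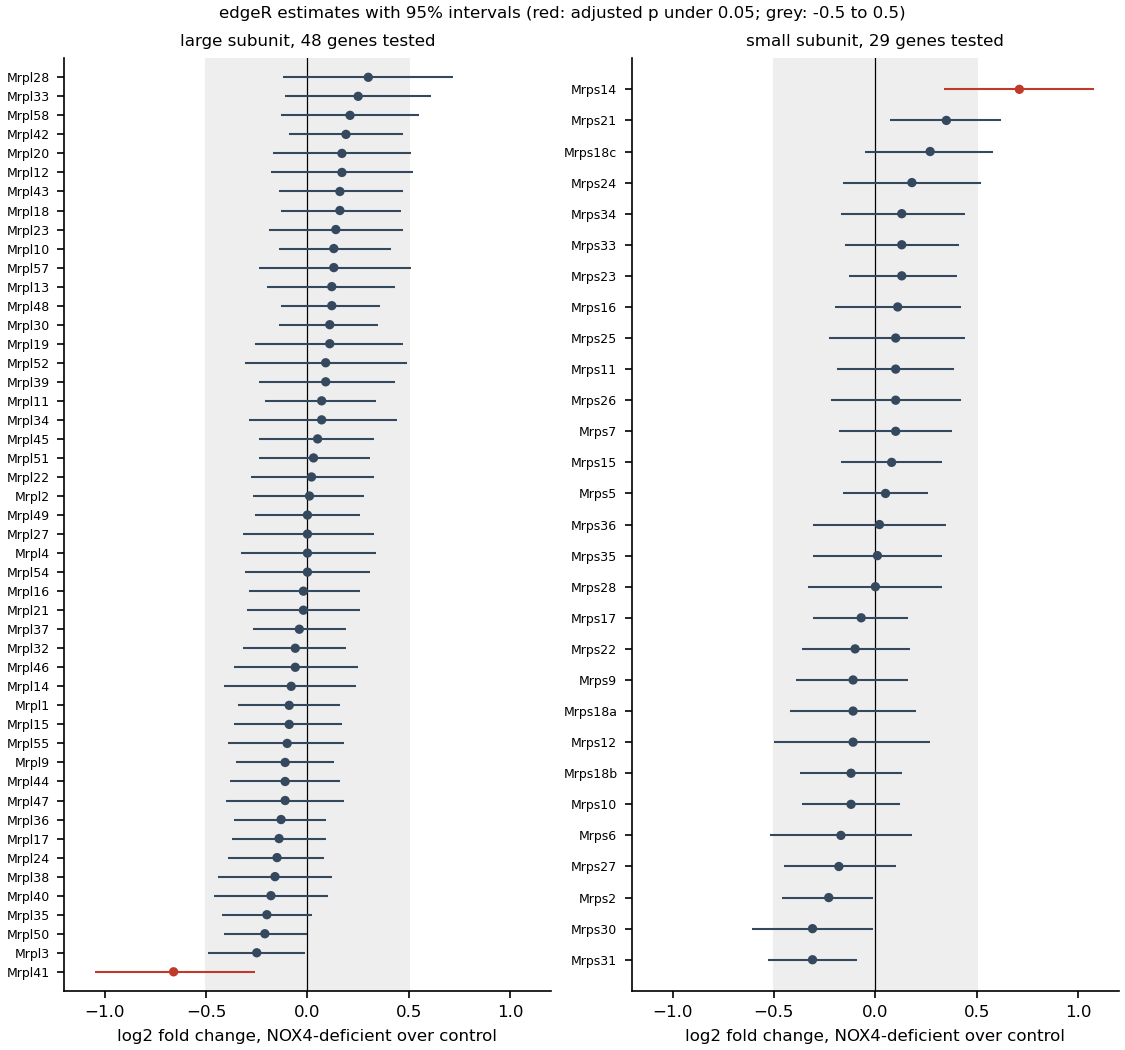
Log2 fold change (horizontal axis, NOX4-deficient over control) of each large-subunit gene (left) and small-subunit gene (right) tested, from edgeR's fit over all 12725 rows. Lines are 95% intervals, red marks an adjusted p under 0.05, and the grey band runs from -0.5 to 0.5. Mrps14 at 0.71 and Mrpl41 at -0.66 stand apart from the rest, whose estimates lie between -0.31 and 0.35.

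Mrps14 encodes a small-subunit protein with a bacterial counterpart that binds the ribosomal RNA in the head of the subunit. It was measured at 20.4, 19.9, 21.7 and 19.9 CPM in the controls and at 47.8, 25.3, 32.0 and 28.8 CPM in the NOX4-deficient libraries. All 4 NOX4-deficient libraries lay above all 4 controls, and NOX4-deficient 1 lay far above the other three. The means were 20.5 ± 0.853 and 33.4 ± 9.93 CPM, and the log2 fold change was 0.71 (SE 0.17, 95% interval 0.34 to 1.08; edgeR adjusted p = 0.0265). The call did not rest on a wide margin. Without NOX4-deficient 1 the log2 fold change was 0.50 (adjusted p = 0.0344), at the fold threshold and not over it. The adjusted p was 0.0571, 0.069, 0.0535 and 0.0706 without controls 1, 2, 3 and 4 and 0.0524 without NOX4-deficient 3.

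Mrpl41 encodes a large-subunit protein found in mitochondrial ribosomes alone. It was measured at 21.5, 16.8, 18.1 and 26.7 CPM in the controls and at 15.9, 9.36, 14.2 and 13.2 CPM in the NOX4-deficient libraries. The groups did not overlap, but the lowest control and the highest NOX4-deficient library lay close together. The means were 20.7 ± 4.41 and 13.2 ± 2.79 CPM, and the log2 fold change was -0.66 (SE 0.18, 95% interval -1.05 to -0.26; edgeR adjusted p = 0.0468). Control 4, the lowest control for 52 of the 77 genes, was the highest for Mrpl41. Without it the log2 fold change was -0.51 (adjusted p = 0.133). The adjusted p was 0.0879 and 0.0688 without controls 1 and 3, and 0.0824, 0.0842 and 0.0912 without NOX4-deficient 2, 3 and 4. A processed pseudogene, Gm6434, shares 372 bases with Mrpl41 at 97.849% identity, so reads could be split between them, and the value is uncertain to that extent. The protein-coding gene that starts head to head with Mrpl41 at a distance of 935 bases in the GRCm38 annotation is Pnpla7, a lysophospholipase, and it fell too (log2 fold change -0.85, adjusted p = 0.00106).

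Another 3 genes had groups that did not overlap without passing the test, all of them lower in the NOX4-deficient libraries. Over all genes tested here that gave 1 higher and 4 lower of 77, against 7.20% of all rows higher and 8.97% lower. Mrps31, a small-subunit protein without a bacterial counterpart, was at 27.7, 25.3, 26.7 and 25.1 CPM in controls and 22.6, 19.5, 20.7 and 22 CPM in NOX4-deficient libraries. Its log2 fold change was -0.31 (SE 0.10), with an adjusted p of 0.089 in edgeR and 0.0431 in DESeq2, and it misses the fold threshold under either. Mrps2, a small-subunit protein with a bacterial counterpart, was at 20.4, 18, 19.6 and 21 CPM against 17.4, 15.9, 17.1 and 16.8 CPM. Its log2 fold change was -0.23 (adjusted p = 0.206). Mrpl50, a large-subunit protein of mitochondria alone, was at 55.6, 54.8, 56.7 and 59.8 CPM against 52.0, 43.9, 49.1 and 51.8 CPM, with a log2 fold change of -0.21 (adjusted p = 0.216). In each of these 3 genes every NOX4-deficient library lay below every control, by a small amount.

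**Figure D3:**
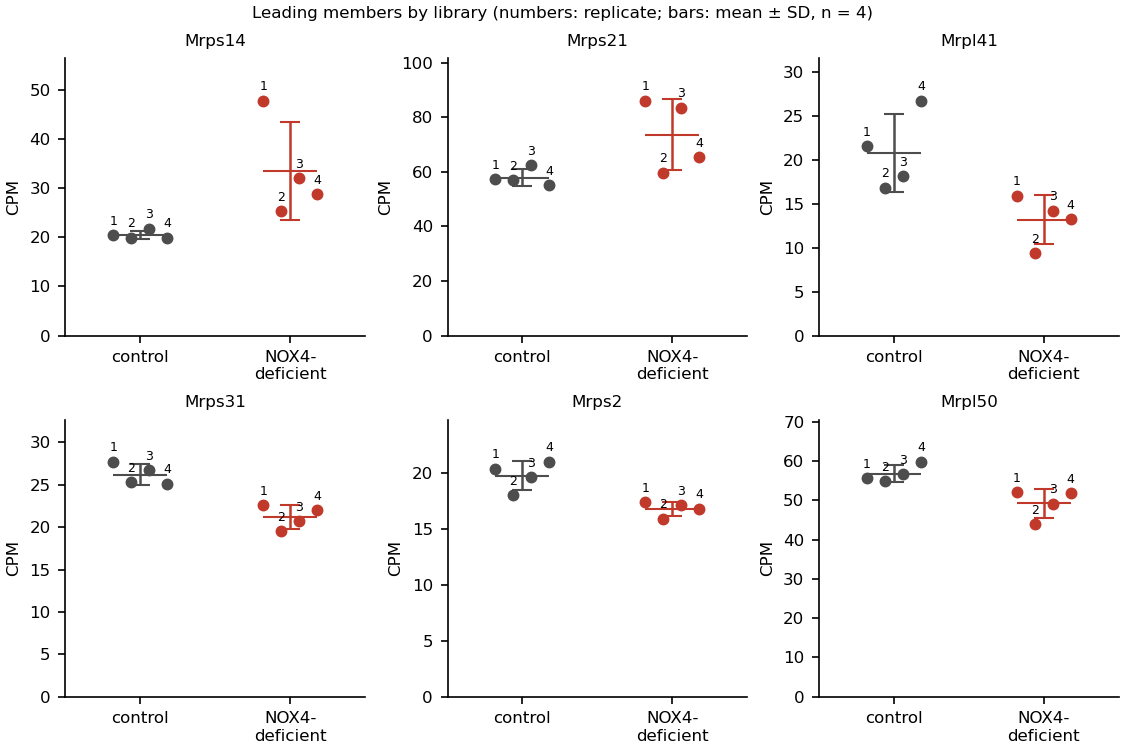
CPM of Mrps14, Mrps21, Mrpl41, Mrps31, Mrps2 and Mrpl50 in each library, with replicate numbers and means ± SD (n = 4); vertical axes start at 0. Mrps14 lies higher and Mrpl41, Mrps31, Mrps2 and Mrpl50 lower in all 4 NOX4-deficient libraries than in any control, while Mrps21 overlaps, since NOX4-deficient 2 (59.6 CPM) is below control 3 (62.3 CPM).

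The remaining genes with the smallest p-values did not pass the test. Mrps21, a small bacterial-type protein of the small subunit, was at 57.9 ± 3.12 CPM in controls and 73.6 ± 13.1 CPM in NOX4-deficient libraries (log2 fold change 0.35, adjusted p = 0.117). Other positive values were 0.30 for Mrpl28, 0.27 for Mrps18c, 0.25 for Mrpl33 and 0.19 for Mrpl42, with adjusted p-values of 0.296 to 0.412. Other negative values were -0.31 for Mrps30 and -0.25 for Mrpl3, with adjusted p-values of 0.198 and 0.199.

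Of the proteins at the active sites of the ribosome none passed the test, and their values ran from -0.25 for Mrpl3 and -0.23 for Mrps2, both outside the quartiles of the family, to 0.10. In the large subunit these were Mrpl2 (0.01), Mrpl3 (-0.25), Mrpl4 (0.00), Mrpl16 (-0.02), Mrpl22 (0.02) and Mrpl27 (0.00), whose bacterial counterparts surround the peptidyl transferase center and the peptide tunnel. In the small subunit they were Mrps12 (-0.11), which lies at the decoding site, Mrps2 (-0.23), Mrps5 (0.05), Mrps7 (0.10) and Mrps11 (0.10), whose bacterial counterparts lie along the path of the mRNA. The stalk that recruits translation factors is built on Mrpl10 (0.13), Mrpl11 (0.07) and Mrpl12 (0.17). Mrpl12 showed the wide spread of the NOX4-deficient group, at 69.7 ± 10.2 CPM in controls and 78.2 ± 17.6 CPM in NOX4-deficient libraries.

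The proteins that line the tunnel exit or hold the ribosome at the inner membrane gave 0.14 for Mrpl23, -0.15 for Mrpl24 and 0.05 for Mrpl45, the membrane anchor. Among proteins added in mitochondria, Mrpl44, which has the fold of an RNase III, gave -0.11. Mrpl58, a peptidyl-tRNA hydrolase that is built into the large subunit, gave 0.21. Mrps27, a pentatricopeptide repeat protein, gave -0.18, and Mrps34 gave 0.13. Adjusted p-values of these 7 genes were 0.439 or higher.

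The 3 genes of the S18 family, which arose from a single bacterial protein, did not pass the test. Mrps18a was at -0.11 (95% interval -0.42 to 0.20), Mrps18b at -0.12 (-0.37 to 0.13) and Mrps18c, the only one of them that takes the bacterial position, at 0.27 (-0.05 to 0.58), so the intervals overlapped. Their adjusted p-values were 0.296 or higher. Mrps16 (0.11) and Mrps22 (-0.10), known from inherited human disorders of mitochondrial translation, were not called, whereas Mrps14, another gene known from such a disorder, was. Mrps36, the gene outside the ribosome, was at 29.2 ± 3.83 and 29.6 ± 5.88 CPM (0.02).

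Divided by origin, the genes with a bacterial counterpart had 1 call of 46 tested (Mrps14) and a median of 0.01. The genes of mitochondria alone had 1 call of 30 (Mrpl41) and a median of 0.01. Over all rows 2.68% were called higher and 3.48% lower. Counted by place in the ribosome, the median was 0.00 over 50 large-subunit genes and 0.07 over 26 small-subunit genes. By the symbols it had been 0.005 and 0.016. The divisions are parts of 1 family, and the differences between their medians were not tested.

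The libraries of a genotype differed from each other in nearly the whole family. Among the NOX4-deficient libraries, NOX4-deficient 1 had the highest CPM for 60 of the 77 genes (77.9%, against 25.3% of all rows tested) and NOX4-deficient 2 the lowest for 69 (89.6%, against 27.2%). Among controls, control 4 was the lowest for 52 genes (67.5%, against 28.8%). Both subunits took part, with NOX4-deficient 2 the lowest for 45 of 48 large-subunit and 24 of 29 small-subunit genes. The median coefficient of variation of a gene was 8.49% over the controls and 15.9% over the NOX4-deficient libraries, whereas all rows gave 13.9% and 16.7%. Thus the genes of the mitochondrial ribosome varied less than the median row among controls and about as much among NOX4-deficient muscles. The part of counting depth in this comparison was not tested.

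As a description over 8 libraries, with deviations taken from each genotype's mean, the median Pearson correlation of 2 of these genes was 0.72. It was 0.73 between large-subunit genes, 0.72 between small-subunit genes and 0.72 across the subunits, where the median over all pairs of rows was 0.00. All points share their libraries, so these values carry no test. NOX4-deficient 1 and 2 were also the highest and the lowest library of their genotype for other abundant housekeeping mRNAs. The 77 tested cytosolic ribosomal protein genes, which build the ribosomes outside mitochondria, summed to 16721, 11237, 15849 and 12504 CPM in NOX4-deficient libraries 1 to 4. The 76 nuclear oxidative phosphorylation genes, whose proteins join those made on mitochondrial ribosomes, summed to 22389, 14844, 20918 and 19527 CPM. The median correlation of mitochondrial ribosomal protein genes was 0.75 with the former and 0.81 with the latter. NOX4-deficient 1 and 3 were the high libraries of their genotype in each list, the same pair that the second principal component set apart. Control 4 was the lowest control for the oxidative phosphorylation genes (15729 CPM). For the cytosolic ribosomal protein genes control 2 was lower (12823 CPM, against 12934 CPM in control 4). Whether library quality or the muscles themselves gave these orders was not tested.

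**Figure D4:**
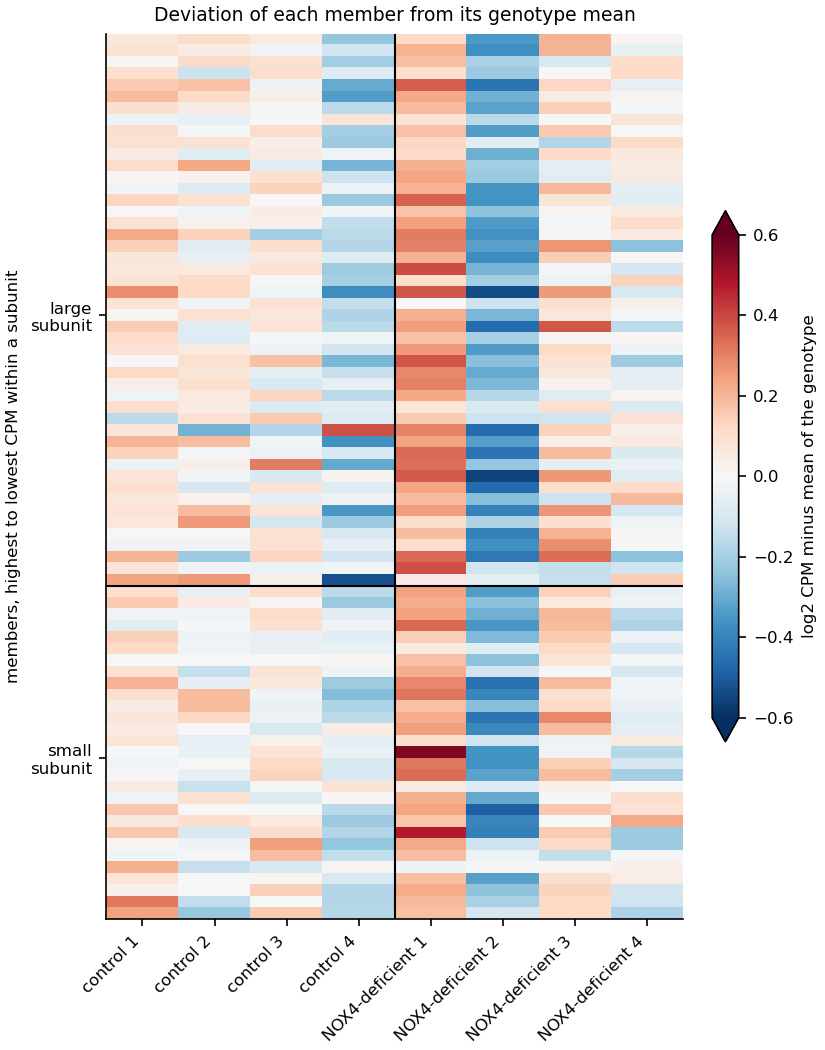
Deviation of each tested gene's log2 CPM from its genotype's mean (color, -0.6 to 0.6), with genes in rows, large subunit above the line and small subunit below, and the 8 libraries in columns. The columns of NOX4-deficient 1 (red) and NOX4-deficient 2 (blue) run through both subunits, and control 4 is the bluest control.

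The markers of other cells did not follow one pattern. The 3 blood cell markers found in the table summed to 47.6 to 52.7 CPM in controls and 159, 80, 118 and 72.3 CPM in NOX4-deficient libraries 1 to 4. Both hemoglobin genes measured rose, Hba-a1 by a log2 fold change of 1.24 (adjusted p = 0.00978) and Hbb-bs by 1.00 (adjusted p = 0.0153). NOX4-deficient 1 was thus the highest library for blood markers, for Mrps14 and for most of the family, and the part of blood in these values was not tested. The 7 slow fiber markers all had positive values (median 0.66), none passed the test, and their sums were 294 to 639 CPM in controls and 386 to 1155 CPM in NOX4-deficient libraries. Endothelial (259 to 329 against 279 to 320 CPM), fibroblast and tendon (356 to 628 against 348 to 589 CPM), immune (11.3 to 32.5 against 11.5 to 21.1 CPM) and adipocyte markers (14.6 to 80.8 against 20.3 to 74.3 CPM) overlapped between the genotypes, and so did satellite and Schwann cell markers (25.1 to 37.6 against 33.4 to 75.9 CPM). Within these lists no gene passed the test, but single genes did not all follow the sums. The fibroblast sum was mostly Dcn (370 and 297 CPM, log2 fold change -0.32), and Pdgfra was also at -0.32. The collagen genes Col1a1 and Col1a2 were each at 0.76 and the tendon gene Tnmd at 0.78, with edgeR adjusted p-values of 0.170 to 0.213. The collagen gene Col3a1 was at 0.11 (edgeR adjusted p = 0.9). Of the 7 immune markers 6 had negative values (median -0.44), and Ptprc, a marker of leukocytes, was at -0.90 (adjusted p = 0.123) without overlap of the groups. The part of these cells in the values of the ribosomal protein genes was not tested.

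The genes that work with the mitochondrial ribosome were compared by lists. The 5 ribosomal proteins named outside the Mrpl and Mrps series had no call, with values of 0.08 for Dap3, -0.11 for Ptcd3, 0.08 for Aurkaip1, 0.01 for Chchd1 and 0.12 for Gadd45gip1. Of 28 assembly factors 0 passed the test in edgeR, 1 at an unadjusted p under 0.05, and their median was -0.09 with 9 positive and 19 negative. Of 16 translation factors 0 passed, 2 at an unadjusted p under 0.05, and their median was 0.01. Of 20 mitochondrial aminoacyl-tRNA synthetases, which charge tRNAs for the ribosome, 0 passed, 2 at an unadjusted p under 0.05, and their median was 0.00. The summed synthetase level was nevertheless 752 ± 181 CPM in controls and 477 ± 81.2 CPM in NOX4-deficient libraries. Most of that difference was Lars2, the leucyl-tRNA synthetase, named here after its values were seen. It was at 680, 261, 338 and 472 CPM in controls and 146, 298, 114 and 121 CPM in NOX4-deficient libraries, with a log2 fold change of -1.37 (SE 0.39, adjusted p = 0.0682). NOX4-deficient 2 overlapped the controls.

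Of 26 genes of transcription and RNA handling in mitochondria 0 were called, and 1 was lower at an adjusted p under 0.05, against 4.62% of all rows. At an unadjusted p under 0.05 there were 2 higher and 7 lower, where all rows gave 23.2%. The groups did not overlap for 6 genes, all lower, against 8.97% of all rows. Polrmt, the mitochondrial RNA polymerase, was at 26 ± 1.48 CPM in controls and 19.9 ± 1.35 CPM in NOX4-deficient libraries, without overlap, and fell by 0.38 on the log2 scale (SE 0.10, adjusted p = 0.0424), under the fold threshold. Leaving out any single library took its adjusted p over 0.05 (0.0654 to 0.136). Of 14 regulators of mitochondrial biogenesis, 11 had negative values, the median was -0.25 and 1 passed the test, where 3.48% of all rows were called lower. At an unadjusted p under 0.05, 1 regulator was higher and 4 were lower, where all rows gave 23.2%. Yy1, the transcription factor whose motif was searched above, was at 71.0, 74.5, 71.0 and 84.9 CPM in controls and 51.7, 53.9, 53.7 and 53.3 CPM in NOX4-deficient libraries. Its log2 fold change was -0.50 (SE 0.09, adjusted p = 0.00824), which before rounding was only just beyond the fold threshold. The lower end of the list was Ppargc1a, the coactivator PGC1α, also named after its values were seen. It was at 127, 161, 54.2 and 55.9 CPM in controls and 27.7, 33.0, 29.5 and 61.4 CPM in NOX4-deficient libraries (-1.39, SE 0.42, adjusted p = 0.0855), and the groups overlapped.

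The mRNAs that mitochondrial ribosomes translate were represented by 3 of the 13. No row was found by symbol for the others or for the 2 mitochondrial rRNAs. mt-Nd2 was at 13088 ± 767 and 12858 ± 1813 CPM (-0.03), mt-Nd3 at 18.4 ± 4.49 and 18 ± 5.03 CPM (-0.04) and mt-Co3 at 200 ± 104 and 171 ± 106 CPM (-0.23), with adjusted p-values of 0.843 to 0.946. Poly(A) selection and related nuclear copies of mitochondrial sequence both bear on such counts, and their part was not tested. The partner lists leaned slightly upward, each with 0 calls in edgeR and 0 genes at an unadjusted p under 0.05. Of the cytosolic ribosomal protein genes 69 of 77 had positive values (median 0.09), and of the nuclear oxidative phosphorylation genes 71 of 76 (median 0.12). The mitochondrial ribosomal protein genes, with 42 of 77 positive, were more evenly divided, and the difference between these lists was not tested.

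**Figure D5:**
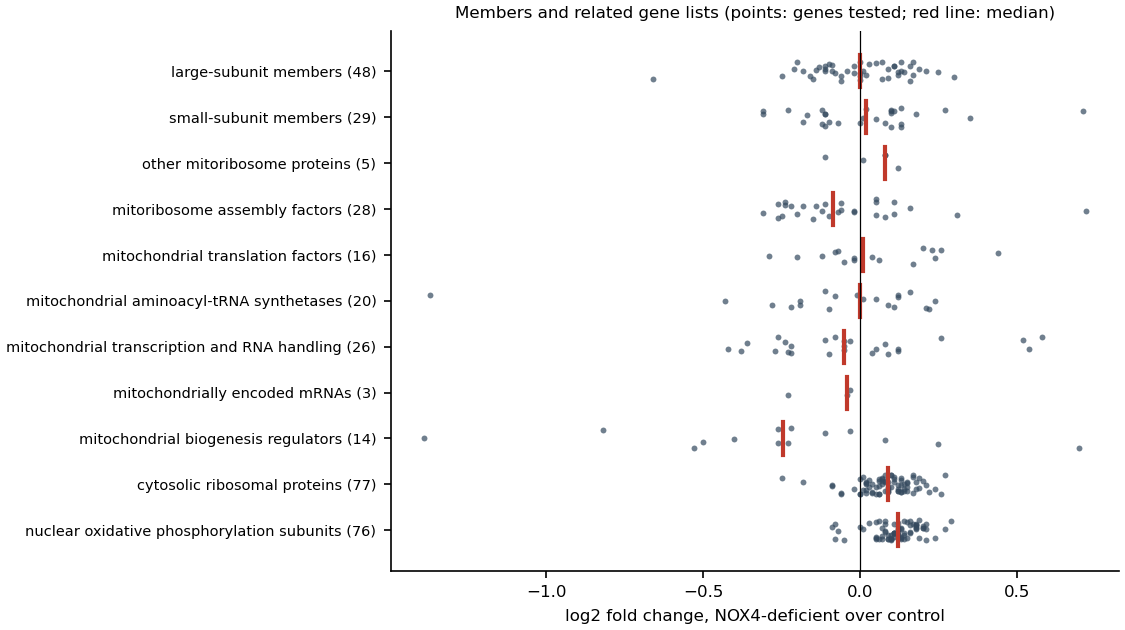
Log2 fold change (horizontal axis) of each tested gene in the 2 subunits and in the related lists, with the number tested in parentheses. Points are genes, spread vertically for visibility, and red lines are medians. Both subunits center near 0, oxidative phosphorylation genes at 0.12 and biogenesis regulators at -0.25.

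The position of these genes in the genome bears on how they were counted. Exons of 33 of the 78 overlap an exon of another gene, 28 of them on the opposite strand, and the libraries did not mark strand, so reads there cannot be assigned to 1 gene with certainty. Mrpl46 and Mrps11 overlap each other in this way. The 45 genes without overlap had a median log2 fold change of 0.005 and both calls. Processed pseudogene copies with at least 95% identity over 200 bases or more were found for 18 genes. A protein-coding neighbor starting head to head within 1000 bases was found for 18 of the 78 genes (23.1%), against 1489 of 21938 protein-coding genes (6.8%). Some of these neighbors serve the same organelle, such as Sars2, the mitochondrial seryl-tRNA synthetase, 172 bases from Mrps12 (0.12 against -0.11). Fau, which encodes a cytosolic ribosomal protein, lies 59 bases from Mrpl49 (0.13 against 0.00), and Psma2 lies 75 bases from Mrpl32 (-0.19 against -0.06). Of the 15 neighbors tested, Pnpla7 was the only one past the test.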

How the data were processed

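The authors aligned paired-end reads of poly(A)-selected, unstranded libraries with the nf-core/rnaseq pipeline and deposited a table of raw counts per gene. The submitters' processing notes name STAR and GRCm39; the counter's settings and the annotation release are not given in the sources used here. The 8 columns were grouped by genotype label, 1 mouse per column as far as the labels tell, so p-values measure the spread between these samples. Members were found by symbol. Rows passing edgeR's expression filter (12725) were fitted with genotype only in edgeR 4.0.16 (R 4.3.3; TMM, robust quasi-likelihood test, Benjamini-Hochberg adjustment over all rows). CPM used TMM-scaled library sizes. The fit was checked on simulated counts. Depth was 16350548 to 19804661 counts per library; counts of any 2 replicates differed beyond counting error (chi-square over degrees of freedom 13.5 to 56.4 in 12 pairs). Alternatives were DESeq2 1.42.0, pydeseq2 0.5.4, other scalings and filters, length and GC correction, a replicate block and leaving out each library. Same-numbered samples correlated at 0.22, 0.15, 0.04 and 0.04, so the numbers do not pair the samples. Lengths, overlaps and neighbors came by symbol from GENCODE M21 (GRCm38), found for 78 members, and promoters from RefSeq GRCm38.p6. The members, gene lists and tests were chosen with earlier results of these data known. Named were genes with an adjusted p under 0.05, the 6 smallest p-values in each direction and genes whose groups do not overlap. Also named were the 3 highest and lowest levels per subunit, genes with set roles and genes failing the filter. From other lists, up to 3 genes per direction with an adjusted p under 0.05 were named, and every gene of lists of 5 or fewer.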

Additional observations from a re-analysis of the deposited data

Results flagged for a closer look

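A library far from the other 3 of its group, by Dixon's criterion for 4 values, was found in 9 of 148 groups examined, where chance alone gives about 7.4 (1 in 20). The gap over the range was 0.834 for Mrpl42, with control 4 at 122 CPM below controls at 150 to 155 CPM. It was 0.867 for Mrps35, with control 4 at 15.5 CPM below 18.9 to 19.4 CPM, and 0.903 for the summed ribosomal proteins outside the Mrpl and Mrps series, with control 4 at 188 CPM below 208 to 210 CPM. Control 1 was high for Mrps15 (0.840; 49.9 CPM against 43 to 44.2 CPM), for Mrps5 (0.878; 40.2 CPM against 35.9 to 36.4 CPM) and for the summed adipocyte markers (0.836; 80.8 CPM against 14.6 to 25.5 CPM). Control 3 was high for the summed skeletal muscle fiber markers (0.896; 173995 CPM against 140634 to 144113 CPM). The large over small ratio of NOX4-deficient 4 was high (0.926; 2.26 against 2.12 to 2.13). Nox4 itself was low in NOX4-deficient 1 (0.918; 1.74 CPM against 2.17 to 2.21 CPM).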

How the results depend on the processing

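Both calls kept their direction under all 17 refits, with log2 fold changes of 0.50 to 0.82 for Mrps14 and -0.75 to -0.51 for Mrpl41. The number of members called fell from 2 to 1 with scaling by library size only, with at least 10 counts in every sample and without robust fitting, each time because Mrpl41 passed 0.05 (adjusted p 0.0529, 0.0525 and 0.051), to 0 at an adjusted p under 0.01, and to between 0 and 1 with 1 library left out. The rows called over all genes tested numbered 784, 252 at an adjusted p under 0.01 and 499 (without control 4) to 712 with 1 library left out. With 1 library left out, the median log2 fold change of the members was between -0.061 and 0.112 and the median log2 fold change of the small-subunit members between -0.055 and 0.129, both highest without NOX4-deficient 2. The replicate block, for numbers that do not pair the samples, left 2 members called (Mrps14 0.67, Mrpl41 -0.66), and 2 of 8 samples correlated best with their own number. Positive members numbered 42 of 77, 34 with the length and GC trend removed and 30 to 51 with 1 library left out, so the split by sign depends on the libraries. By coding length, chosen after seeing the data, the median levels were 50.6 CPM per kb for the large and 39.4 for the small subunit. Of 901 values of named genes, 822 kept direction and side of the threshold, 24 became weaker across it and 4 stronger. Mrps21 came under an adjusted p of 0.05 in 1 of the 17 refits and Mrps31 in 3. Another 51 values, none past the threshold, changed sign. With the length and GC trend removed these were Mrpl2 (-0.08), Mrpl22 (-0.06), Mrpl27 (-0.08), Mrpl4 (-0.09), Mrps36 (-0.06) and Chchd1 (-0.09); with the block Mrpl27 (-0.01), Mrpl4 (-0.01), Mrps35 (0.00) and Chchd1 (-0.02); without a filter Mrpl4 (0.00); and with at least 10 counts Mrpl16 (0.00). With 1 library left out the sign also changed, over these ranges, for Mrpl16 (-0.09 to 0.08), Mrpl19 (-0.04 to 0.19), Mrpl2 (-0.06 to 0.11), Mrpl22 (-0.04 to 0.14), Mrpl27 (-0.06 to 0.14), Mrpl4 (-0.12 to 0.09), Mrpl45 (-0.04 to 0.13), Mrps12 (-0.28 to 0.01), Mrps26 (-0.01 to 0.20), Mrps35 (-0.06 to 0.13), Mrps36 (-0.09 to 0.13), Chchd1 (-0.14 to 0.13), mt-Nd2 (-0.09 to 0.07), mt-Nd3 (-0.23 to 0.10) and mt-Co3 (-0.70 to 0.10).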
